A study of Mus musculus with 11 samples.

Results

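The mitochondrial ribosomal protein genes were the 71 genes of 14847 named ones whose symbol begins with Mrpl (45 genes) or Mrps (26 genes) followed by a digit. They were taken from an expression table of whole mammary gland, collected with the lymph nodes removed, from wild-type mice of the background 129SV::FVB/N::C57BL/6 at parturition (L1). The series also covered STAT5A and H3K4me3 ChIP-seq at day 6 and day 13 of pregnancy and at L1, in 11 samples in all, and asked in which order STAT5 binding and the histone mark appear at mammary genes. The RNA-seq analysed here was 1 poly(A) library, so no value below has a replicate check and no test was made; each comparison of levels is between genes of that library. How many animals it came from is not stated.

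Levels are FPKM, a fragment count divided by both transcript length and library size, so that levels can be set side by side between genes per length. The depth of the library is unknown, because the table holds no counts. The tissue is a mixture. Among epithelial markers, the keratin genes Krt8 and Krt18 stood at 129 and 179 FPKM and the milk protein genes Csn2 and Wap at 170861 and 63664. Of the adipocyte markers, Fabp4 stood at 723 FPKM, Adipoq at 115 and Plin1 at 14.3. The cells that supplied the transcripts described here cannot be told apart. Of the 6 epithelial markers examined, all were at 10 FPKM or more, as were 9 of the 11 markers of other tissue; the lowest of those was Ptprc, a leukocyte gene, at 2.47.

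Mitochondria keep a ribosome of their own, which makes the membrane subunits of the respiratory chain that mitochondrial DNA encodes. All of its proteins are encoded in the nucleus, made in the cytosol and imported, and they assemble with RNAs transcribed inside the organelle. Some have a counterpart in the bacterial ribosome from which this machine descends, and others were added during the evolution of mitochondria. Synthesis and secretion of milk draw on the energy that this respiratory chain supplies.

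Membership required a locus carrying only the gene's symbol. Of 78 protein-coding genes with Mrpl or Mrps names in the RefSeq gene table, 7 had no such locus. All 71 members were detected in the gland at parturition, from 2.51 FPKM for Mrpl19 to 168 for Mrps6. Their median was 16.9 FPKM, with quartiles of 8.92 and 28.1, against a median of 3.90 over all named genes. All 71 reached 1 FPKM, as did 73.6% of named genes. At 10 FPKM there were 51 members (71.8%), against 27.9% of named genes, and at 50 FPKM 6 members (8.45%), against 5.81%. Between 10 and 50 FPKM lay 45 of the 71, and 44 were within 2-fold of their own median. Only the 27.9% of named genes that reached 10 FPKM could lie in that band, and their exact share in it was not computed. The upper quartile of named genes was 11.4 FPKM, and 48 members lay above it. The median member stood above 82.3% of named genes and the lowest above 40.9%. Their FPKM added up to 0.149% of the total over named genes, in a library where the milk protein gene Csn2 alone reached 170861 FPKM.

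**Figure D1:**
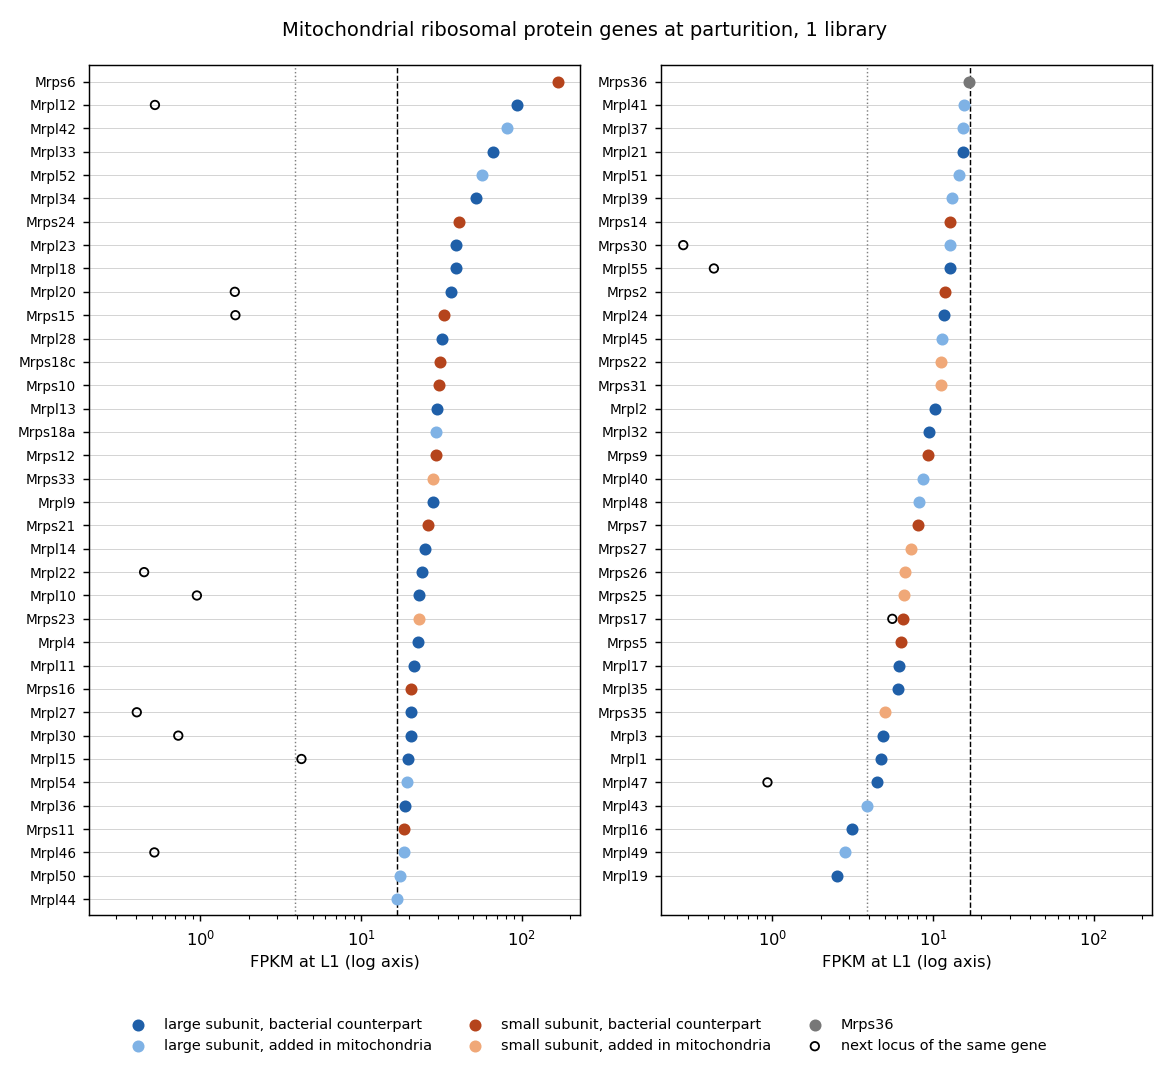
Levels of the 71 mitochondrial ribosomal protein genes in 1 L1 library, in FPKM on a log axis, ordered from Mrps6 at 168 to Mrpl19 at 2.51. Filled points are each gene's highest locus, coloured by subunit and origin, open circles the next locus of the same gene where it is above 0, the dashed line the members' median of 16.9 and the dotted line the median of 3.90 over named genes. The widest step between neighbours, 1.79-fold, is the first, from Mrps6 to Mrpl12.

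The order of the levels was gradual over most of its length. Of the 70 steps from one member to the next, 57 were under 1.1-fold, and without replicates none of these neighbours can be ranked with confidence. The widest step was the first, from Mrps6 to Mrpl12, at 1.79-fold. Mrps6 is the counterpart of a bacterial protein of the small-subunit platform, and in the gene table of the mouse assembly GRCm38.p6 its gene overlaps Slc5a3, an inositol transporter gene with no value of its own here. Fragments of overlapping genes may not have been assigned separately, so the 168 FPKM of Mrps6 is uncertain. Without Mrps6, the small-subunit genes ran from 5.04 to 41.0 FPKM.

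Mrpl12 was next, at 94.1 FPKM. It encodes the protein of the flexible stalk that recruits translation factors, and unlike most proteins of the ribosome it is present in several copies per particle. Then came Mrpl42 at 81.0 FPKM, Mrpl33 at 66.3, Mrpl52 at 56.5 and Mrpl34 at 51.6, all of the large subunit. Mrpl33 and Mrpl34 are counterparts of very small bacterial proteins, and Mrpl42 and Mrpl52 were added in mitochondria. The 10 highest members closed with Mrps24 at 41.0 FPKM, Mrpl23 and Mrpl18 at 38.8 each, and Mrpl20 at 36.4, so that 8 of the 10 were of the large subunit and 2 of the small.

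The low end was also made up mainly of large-subunit genes. Of the 10 lowest members 9 belonged to the large subunit, which supplied 47 of the 71 genes. Mrpl19 stood at 2.51 FPKM, Mrpl49 at 2.82, Mrpl16 at 3.12 and Mrpl43 at 3.87, the last of these close to the median of named genes. Mrpl16 is a protein near the catalytic centre, and Mrpl49 and Mrpl43 were added in mitochondria. Mrpl47 was at 4.45 FPKM, Mrpl1 at 4.71, Mrpl3 at 4.90, Mrpl35 at 6.04 and Mrpl17 at 6.17, with Mrps35 at 5.04 as the one small-subunit gene. Genes whose products join the same particle were therefore up to 67.0-fold apart in transcript level, or 37.4-fold with Mrps6 left out.

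Within the large subunit, levels were compared by the place of the protein in the ribosome. Among proteins of the stalks, Mrpl12 at 94.1 FPKM lay 4.12-fold above Mrpl10 at 22.8, which anchors it, and 4.39-fold above Mrpl11 at 21.4, which forms the stalk base. Mrpl1, of the opposite stalk where tRNA leaves, was at 4.71 FPKM, 19.98-fold below Mrpl12. Near the peptidyl transferase centre, where peptide bonds form, Mrpl27 stood at 20.4 FPKM and Mrpl2 at 10.3, and Mrpl3 and Mrpl16 were at 4.90 and 3.12. The median of these 4 genes, 7.62 FPKM, was the lowest of the 6 sites examined, among them the head and the body of the small subunit.

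Proteins around the exit of the peptide tunnel face the inner membrane, where the new chains are inserted. Of 7 such genes, Mrpl23 was highest at 38.8 FPKM and Mrpl22 next at 23.9, and Mrpl47 was lowest, 8.72-fold below Mrpl23. Mrpl45, which anchors the ribosome to the membrane, was at 11.4 FPKM, with Mrpl44 at 16.9, Mrpl39 at 13.1 and Mrpl24 at 11.7. For the central protuberance, which faces the small subunit, Mrpl18 reached 38.8 FPKM, Mrpl46 18.4, Mrpl40 8.60 and Mrpl48 8.14.

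The other large-subunit genes with a bacterial counterpart filled the middle of the range. Mrpl28, Mrpl13, Mrpl9 and Mrpl14 were at 32.1, 29.9, 27.97 and 24.99 FPKM, and Mrpl4, Mrpl30, Mrpl15 and Mrpl36 at 22.7, 20.4, 19.7 and 18.8. Lower were Mrpl21 at 15.4 FPKM, Mrpl55 at 12.7 and Mrpl32 at 9.45. Of those added in mitochondria, Mrpl54, Mrpl50, Mrpl41 and Mrpl37 lay close together at 19.5, 17.4, 15.5 and 15.4 FPKM, with Mrpl51 at 14.5. Mrps18a and Mrps30 carry small-subunit names for historical reasons, but their products sit in the large subunit; they stood at 29.5 and 12.7 FPKM.

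The 23 small-subunit genes had a median of 12.8 FPKM, against 17.4 for the 47 of the large subunit, a ratio of 1.36. At 10 FPKM or more were 15 of the 23 (65.2%) and 35 of the 47 (74.5%). In the body and platform, 9 genes had a median of 26.2 FPKM: below Mrps6 came Mrps15 at 33.0, Mrps18c at 30.9, Mrps12 at 29.4 and Mrps21 at 26.2. Mrps12 encodes the counterpart of the bacterial protein at the decoding site, where codon and anticodon are matched. Mrps16 and Mrps11 followed at 20.5 and 18.5 FPKM, and Mrps17 and Mrps5 at 6.47 and 6.30. In the head, Mrps24 was at 41.0 FPKM and Mrps10 at 30.4, and Mrps14, Mrps9 and Mrps7 at 12.8, 9.24 and 8.09. Mrps2, which lies between head and body, was at 11.8 FPKM. Mrps18c and Mrps18a, relatives of a single bacterial protein that now occupy different subunits, differed by 1.05-fold.

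Among members, small-subunit genes added in mitochondria were the lowest of the 4 groups by median. Groups were limited to Mrpl and Mrps names. They leave out the small-subunit genes Aurkaip1, Chchd1, Ptcd3 and Dap3, at 49.0, 24.0, 12.0 and 5.29 FPKM. The 8 added genes had a median of 9.27 FPKM, 2.22-fold below the 20.5 of the 15 small-subunit genes with a bacterial counterpart. The ranges of these 2 groups overlapped. Mrps33 at 28.2 FPKM and Mrps23 at 22.8 were the highest of the added genes, then Mrps22 and Mrps31 at 11.3 and 11.2. Mrps27, Mrps26, Mrps25 and Mrps35 were between 7.32 and 5.04. In the large subunit the corresponding medians were 15.4 FPKM for 17 added genes and 20.4 for 30 with a counterpart, 1.32-fold apart. Mrps18a is counted here among the added genes, since its place in the large subunit arose in mitochondria; counted with its bacterial relatives instead, it left the medians at 15.0 and 20.4 FPKM, 1.37-fold apart. Over both subunits the medians were 13.1 and 20.4 FPKM. Mrps36, whose product is now known as a component of the oxoglutarate dehydrogenase complex and not of the ribosome, lay at 16.8 FPKM, next to the median of the family.

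**Figure D2:**
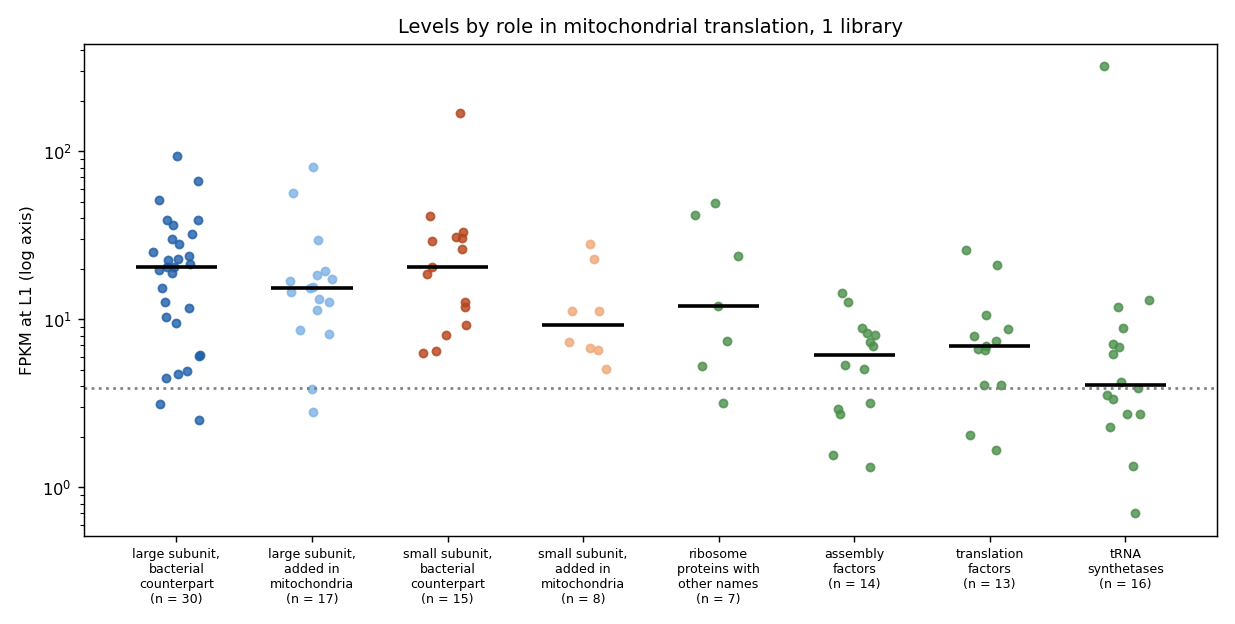
FPKM in 1 L1 library, on a log axis, of mitochondrial ribosomal protein genes by subunit and origin, and of 4 lists of genes that work with them; each point is a gene, the black bar the median and the dotted line the median of 3.90 over named genes. Mrps36 is not shown. Medians run from 20.5 for small-subunit genes with a bacterial counterpart to 4.07 for the tRNA synthetases, whose highest point is Lars2.

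Genes for proteins of the same ribosome that do not carry a Mrpl or Mrps name ran from 3.18 to 49.0 FPKM, so that none reached 50. Aurkaip1 and Chchd1, of the small subunit, were at 49.0 and 24.0 FPKM, and Ptcd3 and Dap3, of the same subunit, at 12.0 and 5.29. Among large-subunit proteins, Ict1, a peptidyl-tRNA hydrolase built into the ribosome, was at 41.9 FPKM, Mrp63 at 7.41 and Gadd45gip1 at 3.18. The median of these 7 was 12.0 FPKM.

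Genes that assemble or serve the mitochondrial ribosome had lower medians than its proteins. The 14 measured assembly factors of 15 listed had a median of 6.15 FPKM, from 1.33 for Tfb1m, which methylates the small-subunit RNA, to 14.4 for Mterf3. Here 2 of 14 (14.3%) reached 10 FPKM, against 27.9% of named genes. Among 13 measured translation factors of 14 listed, the median was 6.95 FPKM. The elongation factor gene Tufm was highest at 25.9 FPKM and Oxa1l, whose product inserts new chains into the membrane, next at 21.0, while the release factor genes Mtrf1 and Mtrf1l were at 2.05 and 1.66. The initiation factor genes Mtif2 and Mtif3 stood at 7.99 and 6.57 FPKM.

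Mitochondrial tRNA synthetases, which load the tRNAs used by this ribosome, lay near the level of named genes at large. The 16 measured genes of 17 listed had a median of 4.07 FPKM, 4.14-fold below the ribosomal proteins and close to the 3.90 of named genes. Under 5 FPKM were 9 of the 16 (56.2%) and 55.7% of named genes. Lars2 stood apart at 320.3 FPKM, 24.5-fold above Fars2 at 13.1; its origin was not tested, and without it the median was 3.90. Sars2 was at 3.53 FPKM and Pars2, the lowest, at 0.70. For transcription and upkeep of mitochondrial DNA, 9 genes had a median of 4.29 FPKM, with the single-strand binding protein gene Ssbp1 at 19.7, the packaging factor gene Tfam at 6.00 and the polymerase gene Polrmt at 3.21.

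Regulators known to act on nuclear genes of mitochondria were present at varied levels. Nrf1 and Gabpa, transcription factors of many such promoters, were at 5.53 and 4.72 FPKM, Yy1 at 9.31 and Myc at 13.2. The receptor gene Esrra was highest of 9 at 29.3 FPKM, and among the coactivators Pprc1 was at 8.27, Ppargc1b at 2.60 and Ppargc1a at 0.27. The other ribosome and the respiratory chain were set beside the family for scale. The 72 cytosolic ribosomal protein genes had a median of 505 FPKM, 29.97-fold that of the mitochondrial ones. Their lower quartile was 333 FPKM, and 68 of the 72 reached 50 FPKM, against 6 of the 71 mitochondrial genes. Above the lowest cytosolic gene, Rpl31 at 27.6 FPKM, lay 19 of the 71 mitochondrial genes. The 32 complex I subunit genes named Nduf had a median of 57.2 FPKM, 3.39-fold above the mitochondrial ribosome.

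Many members share a start region with another gene. Using the promoter table of RefSeq genes on GRCm38.p6, which held 65 of the 71 members, 25 (38.5%) had a gene that starts on the other strand within 1000 bases, against 21.6% of the named genes in that table and 15.8% of all its genes. Judged by the nearest pair of listed starts, 24 of the 25 diverged, and Mrpl48 and Rab6a overlapped. Divergence by that measure does not exclude overlap: some of the 24 overlap their facing gene in the annotation, such as Mrpl27 with Eme1. One pair joined members of both subunits: Mrps11, of the small subunit, and Mrpl46, of the large, start 42 bases apart and were at 18.5 and 18.4 FPKM, a ratio of 1.00.

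The other 23 pairs joined a member to a gene outside the family, and the member was the higher gene in 16 of them. The median member stood above 82.3% of all named genes, so this count says nothing particular about paired genes. Of the 24 pairs, counting Mrps11 and Mrpl46 once, 7 (29.2%) were within 2-fold and 5 (20.8%) were 10-fold or more apart. Among 714 such pairs of named genes with both levels above 0, the shares were 25.6% and 27.2%, so the spread within the members' pairs was near that of pairs in general. Across the 24 pairs Spearman's rho between the levels was -0.18, given as a description of 1 library. Mrps12 faces Sars2, which charges mitochondrial tRNA with serine; Mrps12 was at 29.4 FPKM, 8.33-fold above Sars2. Mrpl43, at 3.87 FPKM, faces Twnk, the mitochondrial DNA helicase gene, at 5.66, and Mrps27, at 7.32, faces Ptcd2, a mitochondrial RNA processing gene, at 13.9.

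In 7 of the 24 pairs the partner was the higher gene, by widely differing amounts. Mrpl49, at 2.82 FPKM, faces Fau, which encodes a protein of the cytosolic small subunit, at 765, a difference of 272-fold. Mrpl47, at 4.45 FPKM, faces the complex I gene Ndufb5 at 114, 25.6-fold higher, and Mrpl32 faces the proteasome gene Psma2 at 31.7, 3.35-fold higher. Mrpl18, at 38.8 FPKM, faces Tcp1, a subunit gene of the cytosolic chaperonin, at 68.3, only 1.76-fold higher. At the other extreme Mrpl27 lay 94.8-fold above Eme1, a DNA repair nuclease gene at 0.22 FPKM, and Mrps18c 19.3-fold above the helicase gene Helq. Mrpl27 and Eme1 overlap in the RefSeq annotation, as do Mrpl18 and Tcp1. Whether overlap affects the levels of these pairs was not tested.

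**Figure D3:**
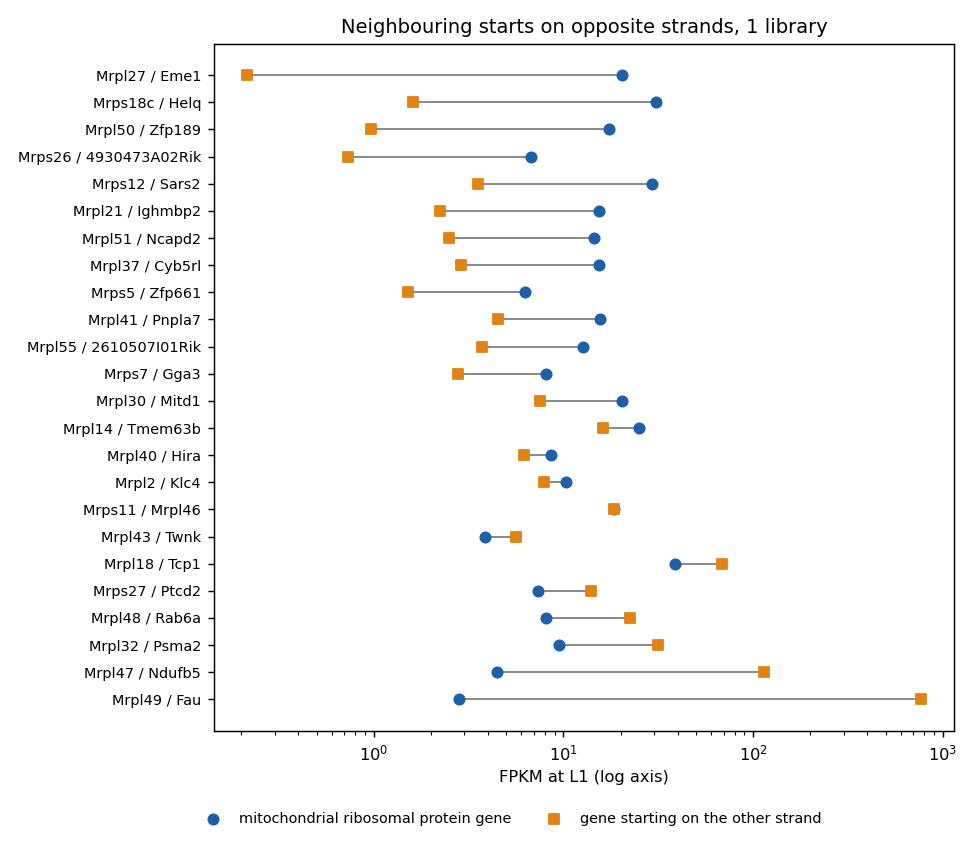
FPKM in 1 L1 library, on a log axis, of 24 pairs of genes that start on opposite strands within 1000 bases; circles are mitochondrial ribosomal protein genes, squares the partners (for Mrps11, the partner Mrpl46 is itself a member, and its points coincide). Pairs run from Mrpl27 at 20.4 with Eme1 at 0.22 to Mrpl49 at 2.82 with Fau at 765.

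The stretch between the Mrps11 and Mrpl46 starts is shown because a small-subunit and a large-subunit gene both start there. It is given 5′ to 3′ on the strand of Mrps11, from RefSeq on GRCm38.p6, with the bases between the starts in capitals.
Mrps11 and Mrpl46, chr7:78783059-78783160, plus strand: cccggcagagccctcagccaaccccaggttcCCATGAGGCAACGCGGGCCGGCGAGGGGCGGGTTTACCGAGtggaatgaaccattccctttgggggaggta
The capitals span 41 bases, and none of the motif letters searched below fell inside the printed stretch. The wider promoter window of Mrps11 does hold the YY1 letters, outside the printed bases.

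Promoter windows, from 250 bases before to 50 after each start, were searched on both strands for letters of factors known from genes of mitochondria. The NRF1 core GCGCATGC occurred in 7 of 65 members (10.8%), against 5.33% of named genes and 3.05% of all genes of the table. The ETS core CCGGAAG, bound by GABPA and its relatives, occurred in 22 members (33.8%), against 17.4% and 9.93%. The YY1 core AAGATGGC occurred in 12 members (18.5%), against 4.67% and 3.19%. At least 1 of these 3 was present in 34 of the 65 (52.3%), against 24.98% of named genes and 14.9% of all. Among named genes at 10 FPKM or more, a set nearer to the members in level, the shares were 6.64% for NRF1, 22.3% for ETS and 6.40% for YY1. For the letters TTCNNNGAA, the core of STAT sites, 6 members (9.23%) had a match, against 8.43% of named genes and 9.55% of all. These matches are letters in a window and not measured sites, and no 2 matches of different motifs overlapped in the members.

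**Figure D4:**
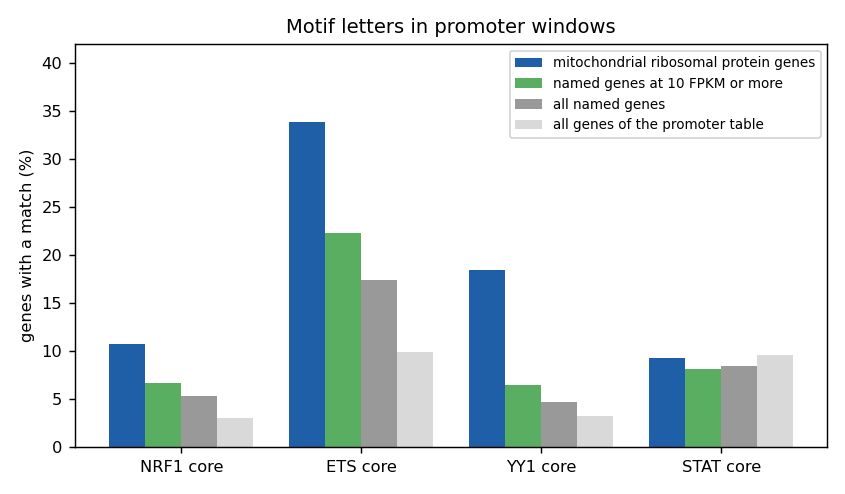
Share of genes, in percent, whose promoter window holds the letters of each motif, for 65 mitochondrial ribosomal protein genes, for named genes at 10 FPKM or more, for all named genes and for all genes of the promoter table. The ETS share is 33.8% in members against 17.4% in named genes, and the STAT share 9.23% against 8.43%.

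Examples are printed because they show where these letters lie relative to the start. Each runs 5′ to 3′ on the strand of its gene, from 100 bases before the start to 30 into the transcript, from RefSeq on GRCm38.p6, with matches in capitals. Mrpl33, the fourth highest member, has an NRF1 and an ETS match side by side at its start, and Mrpl32, a low member, has 4 NRF1 matches, a pair of which overlap. Mrps18a and Mrps27 each hold an ETS match before the start and a YY1 match just after it. Mrps12, whose partner is Sars2, has an ETS match at the start, and Mrpl49, whose partner is Fau, a YY1 match after it. The wider windows of Mrpl32 and Mrps12 also hold YY1 letters, outside the printed bases.
Mrpl33, chr5:31613851-31613980, plus strand: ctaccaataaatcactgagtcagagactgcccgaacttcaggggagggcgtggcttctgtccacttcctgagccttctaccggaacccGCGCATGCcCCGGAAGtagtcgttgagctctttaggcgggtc
Mrpl32, chr13:14613008-14613137, minus strand: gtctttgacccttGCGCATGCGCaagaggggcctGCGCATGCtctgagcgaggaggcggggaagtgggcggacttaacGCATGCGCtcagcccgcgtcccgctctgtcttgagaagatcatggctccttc
Mrps18a, chr17:46110904-46111033, plus strand: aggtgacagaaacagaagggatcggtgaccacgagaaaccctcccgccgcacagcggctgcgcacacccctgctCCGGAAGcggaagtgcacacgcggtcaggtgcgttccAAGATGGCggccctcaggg
Mrps27, chr13:99344686-99344815, plus strand: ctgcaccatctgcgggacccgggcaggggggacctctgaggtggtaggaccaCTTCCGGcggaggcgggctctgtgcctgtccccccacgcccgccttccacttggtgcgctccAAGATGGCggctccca
Mrps12, chr7:28741792-28741921, minus strand: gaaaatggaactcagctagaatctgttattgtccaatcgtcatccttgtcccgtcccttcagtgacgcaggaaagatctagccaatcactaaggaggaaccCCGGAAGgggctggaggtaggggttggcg
Mrpl49, chr19:6057726-6057855, minus strand: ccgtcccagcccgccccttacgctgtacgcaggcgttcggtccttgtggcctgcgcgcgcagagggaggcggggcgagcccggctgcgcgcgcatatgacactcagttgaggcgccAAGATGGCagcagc
Matches beginning within 50 bases of a start were held by 9 of the 12 members with YY1 letters (75%), 16 of the 22 with ETS letters (72.7%) and 5 of the 7 with NRF1 letters (71.4%). Among named genes with the same letters the shares were 62.1%, 61.7% and 52.6%.

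Median levels with and without each of these 3 motifs lay within 1.5-fold of each other. Members with an ETS match had a median of 21.7 FPKM and those without 15.4. For NRF1 the medians were 22.8 and 16.1 FPKM, and for YY1 17.0 and 16.8. The printed examples span the range, with Mrpl33 at 66.3 FPKM, Mrps18a at 29.5, Mrps12 at 29.4, Mrpl32 at 9.45, Mrps27 at 7.32 and Mrpl49 at 2.82. By base composition the members' windows were at a median GC content of 58.0%, against 60.2% for named genes. The 6 members with no window in the table were Mrpl4, Mrpl13, Mrpl15, Mrpl19, Mrpl54 and Mrps35.

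Most members were represented by 1 locus of the authors' transcript assembly. Of the 71 genes 15 had several loci (21.1%, against 25.8% of named genes), and in 4 of these the next locus reached 1 FPKM. Only in Mrps17 did that matter much: its loci stood at 6.47 and 5.58 FPKM, and their sum of 12.0 would be 1.86 times the value used. Summing raised Mrpl47 from 4.45 to 6.30 FPKM and Mrpl15 from 19.7 to 25.3. In the RefSeq annotation, 21 members overlapped another gene, among them Mrpl49 with Syvn1. Some overlapped their facing gene, such as Mrpl43 with Twnk, Mrpl27 with Eme1 and Mrpl18 with Tcp1. The share of all named genes that overlap another gene was not computed, so the count says nothing particular about the family. The part of such overlap in the members' levels was not tested. Mrpl38 and Mrpl53 occurred only in loci shared with Trim65 and Ccdc142, at 7.35 and 9.12 FPKM, and so were not members. Mrps18b, Mrps28 and Mrps34 matched no locus by symbol, alone or shared, and so have no level here.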

How the data were processed

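RNA-seq of 1 library of whole mammary gland at L1 was used; the other 10 samples, the peak lists included, were not, since with no annotation of their build, mm9, regions could not be tied to genes. The authors' deposited table gives FPKM per locus of a transcript assembly. The submitters' processing notes name CASAVA, TopHat and mm9; no source used here names the tool behind the FPKM. Reads were poly(A)-selected, per the labels' protocols. FPKM is scaled to the whole library, so very high milk transcripts lower the FPKM of all others.

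A gene took its highest locus, and a locus carrying more than 1 symbol was dropped. Of the listed partner symbols, 12 were matched through a unique older symbol in the RefSeq gene table of GRCm38.p6. Neighbours and motifs came from the RefSeq promoter table of that assembly. Any member may be named, with the 10 highest and 10 lowest, every gene of the partner lists, and the facing genes of named members. The members and lists were chosen with earlier results of these data known. The motif letters, the STAT core and the comparison sets of cytosolic and Nduf genes were chosen after the data had been seen. With 1 library, no test and no correlation across samples was made. Python 3.11.15, pandas 2.3.3 and SciPy 1.17.1 were used, and the level and motif code was tested on simulated data.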

Additional observations from a re-analysis of the deposited data

How the results depend on the processing

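In place of a replicate spread, a change of over 1.5 times counted as a move. Taking the sum over loci, only genes with 1 locus, an FPKM minimum of 1, or loci with several symbols, all 38 recomputed summary values, including those of the 2 alternatives added after seeing the data, stayed within it. Some of the 38 were fixed in advance. The minimum of 1 could not alter the members, with a lowest level of 2.51 FPKM, or the translation factors, with a lowest of 1.66. Summing could not alter the number of members. The members' median ran from 15.4 to 16.9 FPKM, that of the large subunit from 15.5 to 17.4, of the small from 11.8 to 12.8, of translation factors from 6.95 to 7.72 and of tRNA synthetases from 3.79 to 5.65. Members at 10 FPKM or more numbered from 38, of the 56 with 1 locus, to 52. Of 71 member levels 70 stayed within 1.5 times when loci were summed, but the 56 with 1 locus could not change. Among the 15 with several loci, only Mrps17 moved, to 12.0 FPKM, because its second locus is nearly as high. With a limit of 500 bases, 1 of those added, 23 members in place of 25 had a facing neighbour; the other moved Mrps18a to the genes with a bacterial counterpart. Protein length and residues, planned with a change of pseudocount, were not run, as protein sequences were not used here. No paired analysis was possible because there is 1 library. Unknown depth limits the low values most: no error can be put on levels such as 2.51 FPKM for Mrpl19.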
